A study of Mus musculus with 12 samples.

Results

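Bile acids reach the large bowel after escaping uptake in the ileum, and a small set of genes senses and carries them. The 8 genes described here are all the members of a list of bile acid sensing and transport genes, chosen by symbol from the 17734 genes of the deposited table: the receptors Nr1h4 (FXR) and Gpbar1 (TGR5), the FXR targets Nr0b2 (SHP) and Fgf15, and the transport genes Slc10a2 (ASBT), Fabp6 (IBABP), Slc51a (OSTα) and Slc51b (OSTβ). All 8 had a row in the table. The samples were colorectal tissue of 12 male C57BL/6 mice aged 8 to 10 weeks, split into 4 groups of 3. The labels call the tissue colorectum and the study's methods name the rectum. Normal mice drank water and received no drug. Colitis mice drank 2.5% dextran sulfate sodium (DSS), a polymer that injures the bowel lining, for 7 days. Normal mice receiving BBR drank water and were gavaged with berberine, a plant alkaloid, at 100 mg/kg, and colitis mice receiving BBR had both DSS and BBR. The sample labels give 6 days of BBR, the study's methods 7. DSS colitis is a chemical injury of healthy mice, and each sample is whole tissue in which epithelium, muscle and immune cells were sequenced together.

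FXR is a nuclear receptor that bile acids activate, and it pairs with RXR at inverted repeats in the DNA. In the ileum ASBT brings bile acids in across the brush border, IBABP carries them through the cell, and OSTα and OSTβ together release them into the blood. FXR there raises the genes for IBABP, OSTα, OSTβ, SHP and FGF15, a hormone that tells the liver to make less bile acid, and SHP and FGF15 act back on bile acid synthesis and uptake. TGR5 is a cell surface receptor that raises cAMP, and L cells, which release gut hormones, carry it.

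Reference promoters are shown for Nr1h4, Slc51b and Slc10a2, which had higher values in every colitis mouse than in any normal mouse. The promoter of Fabp6, the closest of these 4 to an FXR site, is shown with them. For Fabp6, colitis mice 1 and 4 lay above all normal mice and colitis mouse 2, at about 1 read, below all of them. Each sequence is the 250 bases before a RefSeq start site in GRCm38.p6, read 5′ to 3′ on the minus strand, where all 4 genes lie. For Slc51b, Slc10a2 and Fabp6 this is the start of the gene, and for Nr1h4 it is an inner start, 26987 bases downstream of the outermost one, whose promoter was not examined. Capitals mark the window closest to 1 of 2 motifs searched with mismatches allowed over 250 bases before to 50 after the start: the inverted repeat of FXR, AGGTCANTGACCT, in Fabp6 and Slc51b, and the palindrome of the epithelial factor HNF1, GTTAATNATTAAC, in Nr1h4 and Slc10a2. Both motifs read the same on the other strand, and N is any base.
Nr1h4 (chr10:89506659-89506908): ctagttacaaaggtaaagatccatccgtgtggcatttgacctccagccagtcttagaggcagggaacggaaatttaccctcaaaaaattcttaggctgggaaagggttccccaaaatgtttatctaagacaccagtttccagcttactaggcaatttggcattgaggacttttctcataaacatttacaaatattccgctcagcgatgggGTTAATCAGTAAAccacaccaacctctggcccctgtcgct
Slc51b (chr9:65422774-65423023): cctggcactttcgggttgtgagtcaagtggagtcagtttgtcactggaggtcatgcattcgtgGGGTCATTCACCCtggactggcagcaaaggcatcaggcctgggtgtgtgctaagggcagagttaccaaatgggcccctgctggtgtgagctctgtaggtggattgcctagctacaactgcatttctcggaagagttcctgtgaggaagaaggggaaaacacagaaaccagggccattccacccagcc
Slc10a2 (chr8:5105288-5105537): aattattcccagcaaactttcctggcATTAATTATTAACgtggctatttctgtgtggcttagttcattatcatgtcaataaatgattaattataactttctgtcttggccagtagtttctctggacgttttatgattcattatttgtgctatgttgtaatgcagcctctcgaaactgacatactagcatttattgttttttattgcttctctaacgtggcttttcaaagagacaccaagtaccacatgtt
Fabp6 (chr11:43601563-43601812): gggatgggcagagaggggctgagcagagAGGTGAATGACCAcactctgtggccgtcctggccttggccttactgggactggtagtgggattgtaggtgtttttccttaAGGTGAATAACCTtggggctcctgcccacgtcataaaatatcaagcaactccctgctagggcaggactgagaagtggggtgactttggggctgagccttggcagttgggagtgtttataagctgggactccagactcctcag

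The Fabp6 promoter held 2 windows, which began 222 and 142 bases before the start, each with 2 mismatches to the FXR repeat, a closeness reached by 1.14% of 32851 mouse promoters. The best window of Slc51b and of Slc51a had 3 mismatches, as in 11.4% of promoters, and that of Nr1h4, Gpbar1, Nr0b2 and Slc10a2 had 4, as in 56.4%. For HNF1, the window of Slc10a2 had 1 mismatch, which 0.207% of promoters matched, and that of Nr1h4 had 2, as in 1.36%. These are matches of letters, and binding was not measured. Promoters were found for 7 of the 8 genes, all but Fgf15.

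The deposited values were read as FPKM, a level scaled for transcript length and sequencing depth. Levels of different genes can be set side by side on it, within the limit that short transcripts came out unlike between mice, as given below. They are not counts. For testing, limma was run on log2(FPKM + 0.1) with all 12 mice in the model, which took in the 15315 genes whose mean reached 0.1 FPKM. The limit was a Benjamini-Hochberg adjusted p of 0.05 over those genes. Differences are on this log2 scale, where changes of low genes come out too small, and ± after a difference is its standard error (SE). Single genes were also compared by exact permutation of 3 mice against 3, two-sided, for which 0.1 is the smallest p possible. The labels do not say whether the mice of a group were caged or handled apart, so the p-values measure the spread between these mice.

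Mice are named by group and by the number in their label. The 4 mice numbered 4, 1 in each group, stood apart: their column totals were 482194 to 504337, against 696286 to 765876 in the 8 others, and 872 to 1086 of their genes were at 0, against 1332 to 1926. Against the other 2 mice of its group, the mouse numbered 4 had lower values for short transcripts. Group medians of this difference on the log2 scale were −2.19 to −1.04 at 300 to 500 bases and −1.34 to −0.92 at 500 to 700. They were −0.75 to −0.34 at 700 to 1000 bases and 0.02 to 0.38 at 3000 to 5000. The transcripts of Fabp6 and Slc51b are short, at 479 and 709 bases, with 488 of the latter inside the RefSeq gene. Each result for the 8 genes was therefore also computed with these mice as a block and without them. One of them, colitis mouse 4 receiving BBR, was unlike the rest of its group in other ways: it had a summed level of 3.06 FPKM for 11 granulocyte genes, against 199 and 219, and of 3987 FPKM for 10 smooth muscle genes, against 585 and 626. Adjusted calls over all genes in colitis against normal numbered 165, of which 100 were higher, and other scalings moved that split, to 185 higher of 258 with quantile normalization and 183 of 227 when centred on 8 epithelial genes. With 1 mouse left out, the calls numbered from 11, without normal mouse 1, to 828, without colitis mouse 4 receiving BBR.

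**Figure D1:**
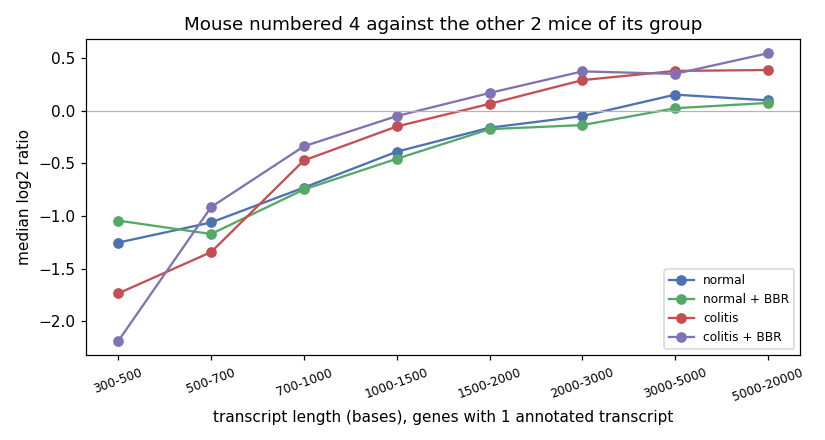
Median log2 ratio (y axis) of the mouse numbered 4 to the mean of the other 2 mice of its group, by transcript length in bases (x axis), over genes with a single annotated transcript, with 1 line per group. All 4 lines lie below 0 for transcripts up to 1500 bases and above it from 3000 bases on.

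The tissue was checked against its markers. All 8 epithelial and all 13 mature colonocyte genes were above 0 in every mouse, with colonocyte sums of 25738 to 87880 FPKM over the 12 mice. Of 18 small intestinal enterocyte genes, 16 were in the table, and 5 of them stayed below 1 FPKM in every mouse. These 5, named after their values were seen, were Fabp1, Lct, Sis, Cubn and Gata4, of which Lct and Sis encode the brush border enzymes lactase and sucrase-isomaltase. In contrast, 11 of the 16 were above 0 in every mouse, and the highest of the list, Mep1a and Rbp2, were at 158 to 213 and 42.6 to 100.2 FPKM in normal mice.

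The 8 genes spanned a wide range of levels. Slc51b (mean of 80.7 FPKM over the 12 mice) and Nr1h4 (55.2) lay above 93.8% and 91.2% of all genes, and Slc10a2 (9.55) and Fabp6 (7.02) above 65.6% and 60.0%. The order is that of means over all 12 mice, and it turned within groups: Nr1h4 was above Slc51b in normal mice (39.7 against 33.9 FPKM) and in normal mice receiving BBR (39.7 against 29.5), and Fabp6 above Slc10a2 in the latter (8.61 against 4.70). Neighbours were not apart in each mouse either: Slc51b ran from 18.5 to 183 FPKM and Nr1h4 from 32.5 to 104, and Slc10a2 from 1.98 to 43.2 and Fabp6 from 0.24 to 16.8. Gpbar1 (0.58) and Slc51a (0.23) were low, and Nr0b2 and Fgf15 were at or near 0. Of the 2 subunits of the basolateral transporter, OSTβ was read far above OSTα in every mouse.

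Nr0b2 encodes SHP, a repressor that FXR raises, and lies on chromosome 4 at 133553376 to 133556686 (GRCm38.p6), with 2 exons. It was at 0 in 11 mice and at 0.07 FPKM in normal mouse 1 receiving BBR, about 1 read. Fgf15, on chromosome 7 at 144896532 to 144900953, was at 0 in 10 mice, at 0.03 FPKM in colitis mouse 4 and at 0.04 FPKM in colitis mouse 3 receiving BBR, again about 1 read each. A count of 3 reads would be worth 0.14 to 0.24 FPKM for Nr0b2 and 0.087 to 0.13 FPKM for Fgf15, by the steps between low values in each mouse and counting error alone. Both genes were under that level in every mouse, so neither was detectable at this depth in any group, with or without DSS. They did not reach the mean needed for the test, and 6 of the 8 genes did.

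**Figure D2:**
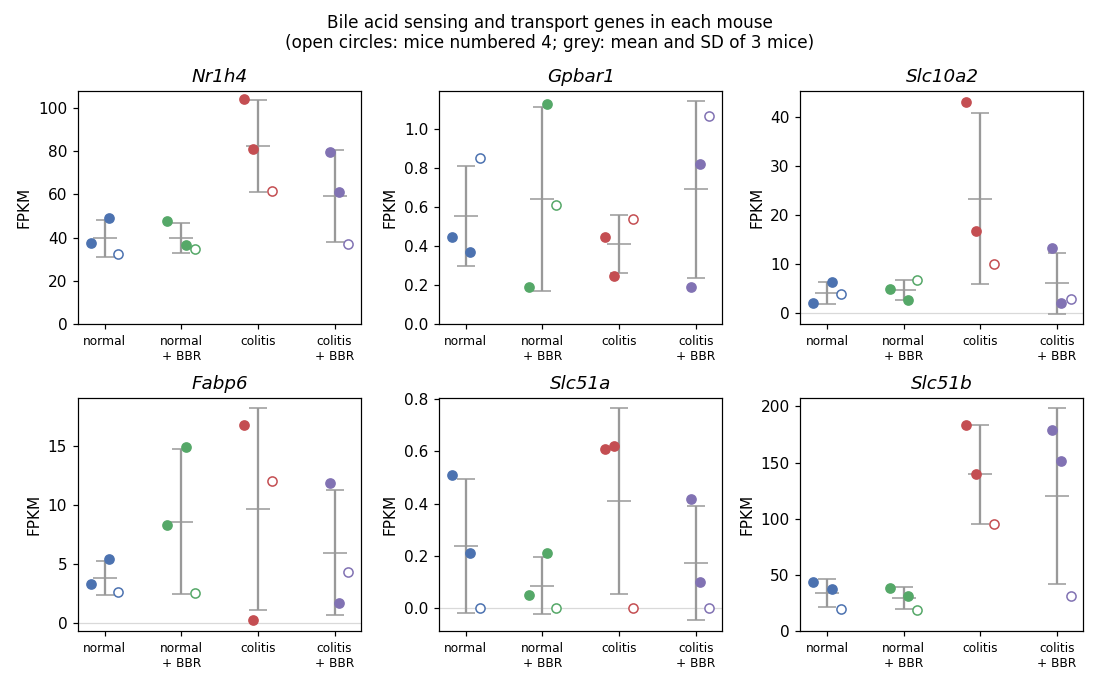
FPKM (linear y axis, 1 panel per gene) of the 6 tested genes in each of the 12 mice, by group (x axis), where a circle is a mouse, open for the mice numbered 4, and the grey bars give the mean and SD of 3 mice. For Nr1h4, Slc51b and Slc10a2 all 3 colitis mice lie above all 3 normal mice, and for Slc51a all 4 open circles are at 0.

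In colitis against normal, 0 of the 6 tested genes passed the adjusted limit, which 165 of 15315 genes (1.08%) did. Nr1h4, Slc51b and Slc10a2 were higher in all 3 colitis mice than in all 3 normal mice, at 2.1, 4.2 and 5.1 times the normal level on the fitted scale. These 3 of 6 had an unadjusted p under 0.05 and were higher, as were 5.56% of all genes (21.4% in either direction). Of all genes, 7.1% were higher without overlap of the groups (29.3% in either direction). The median difference of the 6 genes was 0.76, against −0.32 over all genes tested. Gpbar1, Fabp6 and Slc51a overlapped between the groups.

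Nr1h4, the bile acid receptor FXR, lies on chromosome 10 at 89454234 to 89533645, minus strand. It was at 37.4, 49.1 and 32.5 FPKM in normal mice 1, 3 and 4 and at 104, 81.1 and 61.6 FPKM in colitis mice 1, 2 and 4. The lowest colitis mouse was above the highest normal mouse. The difference was 1.04 ± 0.29 (SE, n = 3 and 3), with p = 0.00437 and an adjusted p of 0.0991 by limma and an exact permutation p of 0.1. With the mice numbered 4 as a block the difference was the same and the adjusted p by limma was 0.0183. Without these mice the values were 1.10 and 0.0485. In these fits, added after seeing the data, 1412 of 15315 and 930 of 15043 genes passed, against 165 as reported. Between the 2 mice numbered 4 alone the difference was 0.92.

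Slc51b, the β subunit of the transporter that passes bile acids to the blood, lies on chromosome 9 at 65412753 to 65422773, minus strand. It was at 43.8, 37.7 and 20.04 FPKM in normal mice 1, 3 and 4 and at 183, 140 and 94.9 FPKM in colitis mice 1, 2 and 4, with the mouse numbered 4 lowest in both groups. Every colitis mouse had at least 94.9 FPKM and no normal mouse more than 43.8. The difference was 2.06 ± 0.58 (SE, n = 3 and 3), with p = 0.00429 and an adjusted p of 0.0987 by limma and an exact permutation p of 0.1. The adjusted p by limma was 0.00956 with the mice numbered 4 as a block and 0.0136 without them, where the difference was 1.98. Slc51b also passed the limit with the replicate number as a block (adjusted p = 0.0278 by limma) and with a fit of the 2 groups alone (0.0244). Of all genes, 1412 of 15315 passed with the mice numbered 4 as a block and 930 of 15043 without them. With the replicate block 734 of 15315 passed and with the 2 groups alone 488.

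Slc10a2 encodes ASBT, the sodium-dependent carrier for bile acid uptake, on chromosome 8 at 5083219 to 5105287, minus strand. Normal mice 1, 3 and 4 had 1.98, 6.40 and 3.94 FPKM and colitis mice 1, 2 and 4 had 43.2, 16.8 and 10.1 FPKM. The colitis mice differed among themselves by more than 4-fold, yet none overlapped with the normal mice. The difference was 2.36 ± 0.72 (SE, n = 3 and 3), with p = 0.00681 and an adjusted p of 0.112 by limma and an exact permutation p of 0.1. It stayed short of the limit with the mice numbered 4 as a block (adjusted p = 0.0660 by limma) and without them (2.88, adjusted p = 0.0947). Without colitis mouse 1 the difference was 1.79.

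Fabp6, the bile acid binding protein of the cytosol, rested on about 1 to 101 reads in a mouse. It was at 3.33, 5.41 and 2.65 FPKM in normal mice 1, 3 and 4 and at 16.8, 0.24 and 12.02 FPKM in colitis mice 1, 2 and 4. Colitis mice 1 and 4 lay above all normal mice and colitis mouse 2, at about 1 read, below all of them. The difference was 0.14 ± 1.26 (adjusted p = 0.956 by limma), and it was 1.94 without colitis mouse 2 and −0.86 without the mice numbered 4. Slc51a, the partner subunit of Slc51b, had 0.51, 0.21 and 0 FPKM in normal mice 1, 3 and 4 and 0.61, 0.62 and 0 FPKM in colitis mice 1, 2 and 4, at most about 13 reads in a mouse. It was at 0 in all 4 mice numbered 4 and above 0 in the 8 others, a pattern shared by 3 genes of the table in all, itself included. Gpbar1, the membrane receptor, had 0.45, 0.37 and 0.85 FPKM in normal mice and 0.45, 0.25 and 0.54 FPKM in colitis mice, with a difference of −0.33 ± 0.62 (adjusted p = 0.759 by limma) that took the opposite sign with quantile normalization (0.06). Slc51a differed by 0.48 ± 0.91 (adjusted p = 0.762 by limma).

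The median of all genes was below 0 in colitis mice, so scaling bears on these differences. With each mouse centred on its median, the differences of Nr1h4, Slc51b and Slc10a2 were 1.38, 2.40 and 2.70, and centred on the 8 epithelial genes 1.18, 2.21 and 2.505. Per 1000 FPKM of the epithelial genes, Nr1h4 was at 3.38 to 3.805 in normal mice and 7.00 to 9.31 in colitis mice, Slc51b at 2.17 to 3.95 and 10.8 to 16.04, and Slc10a2 at 0.18 to 0.50 and 1.14 to 3.57. In colitis mice 2, 3 and 4 receiving BBR, Nr1h4 was at 12.2, 6.47 and 3.78 on this scale, so that mouse 2 was above and mice 3 and 4 were below all colitis mice. In bulk tissue, fewer cells of a type and less RNA per cell cannot be told apart.

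Marker lists of other cells moved with the same mice. The sum of 10 smooth muscle genes was 2033 to 3696 FPKM in normal mice and 108 to 832 in colitis mice, with 10 of 10 genes lower and 9 of 10 not overlapping, as 22.2% of all genes were in that direction. The 11 granulocyte genes summed to 0.42 to 2.75 FPKM in normal and 47.0 to 498 in colitis mice, and the 12 macrophage genes to 229 to 309 and 350 to 1034. Genes of distal large bowel position mark how near the anus a sample lies. They summed to 410 to 481 FPKM in normal mice and 88.5 to 331 in colitis mice, with 6 of 6 lower. Of these, 2 had an unadjusted p under 0.05 and 1 had no overlap, as did 15.9% and 22.2% of all genes in that direction. That sum was mostly Hoxb13, at 348 to 412 FPKM in normal and 74.0 to 238 in colitis mice. The 9 squamous epithelial genes in the table, of the anal skin, summed to 2.54 to 3.63 and 2.85 to 9.41 FPKM. The 13 mature colonocyte genes summed to 25738 to 44813 FPKM in normal mice and to 63377, 65103 and 26182 in colitis mice 1, 2 and 4, with 6 genes higher and 7 lower. The small intestinal enterocyte genes summed to 283 to 462 and 131 to 328 FPKM, and of 13 tested, 3 were higher and 1 lower with an unadjusted p under 0.05, where 5.56% and 15.9% of all genes were. The 8 epithelial genes overlapped, at 9250 to 12894 and 8714 to 12113 FPKM. The part of tissue makeup and position in the differences of Nr1h4, Slc51b and Slc10a2 was not tested.

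**Figure D3:**
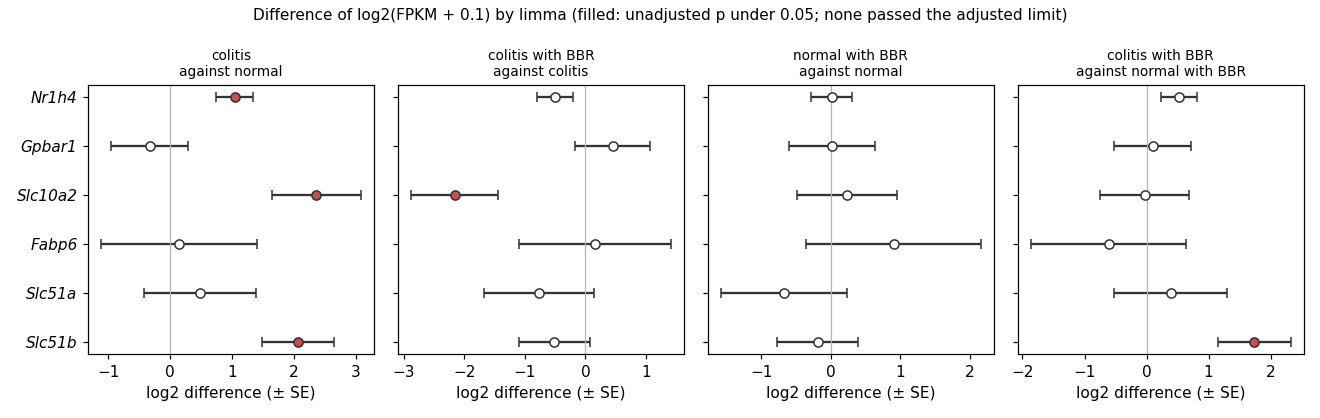
Differences of log2(FPKM + 0.1) with their SE from limma (x axis) for the 6 tested genes (y axis) in 4 comparisons of 3 mice with 3, filled where the unadjusted p was under 0.05. In colitis against normal Slc10a2 (2.36), Slc51b (2.06) and Nr1h4 (1.04) are filled, in colitis with BBR against colitis Slc10a2 alone (−2.16), in normal with BBR against normal no gene and in colitis with BBR against normal with BBR Slc51b alone (1.74).

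Colitis mice receiving BBR were compared with colitis mice to ask what BBR changed in disease. None of the 6 genes passed the adjusted limit, as 0 of all 15315 genes (0%) did by limma. With an unadjusted p under 0.05 there was 1 of 6, Slc10a2, which was lower, as were 5.2% of all genes (6.39% in either direction). The groups overlapped for all 6, and 7.08% of all genes did not overlap. The median difference of the 6 genes was −0.51, against −0.09 over all genes, and without the mice numbered 4 the medians were −0.18 and −0.13.

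Slc10a2 was at 13.2, 2.01 and 2.88 FPKM in colitis mice 2, 3 and 4 receiving BBR, against 43.2, 16.8 and 10.1 FPKM in colitis mice 1, 2 and 4. Mice 3 and 4 of the BBR group lay below every colitis mouse, in the range of normal mice, and mouse 2 lay between colitis mice 4 and 2. The difference was −2.16 ± 0.72 (p = 0.0115, adjusted p = 0.584 by limma), with an exact permutation p of 0.2, and leaving out 1 mouse at a time gave −2.96 to −1.58. Nr1h4 was at 79.6, 61.3 and 37.2 FPKM in colitis mice 2, 3 and 4 receiving BBR, so that mice 3 and 4 were just below or below the lowest colitis mouse. Its difference was −0.51 ± 0.29 (adjusted p = 0.915 by limma), and −0.20 without colitis mouse 4 receiving BBR.

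Slc51b was at 179, 151 and 30.9 FPKM in colitis mice 2, 3 and 4 receiving BBR. The first 2 lay within the range of the colitis mice and mouse 4, the one with few granulocyte transcripts, within that of the normal mice. The difference was −0.51 ± 0.58 (adjusted p = 1.00 by limma), and it was 0.29 without that mouse and 0.04 without the 4 mice numbered 4. Fabp6, at 11.9, 1.68 and 4.37 FPKM, and Gpbar1, at 0.19, 0.82 and 1.07 FPKM, spread over about the range of the colitis mice or beyond it. Slc51a was at 0.42, 0.10 and 0 FPKM.

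Markers of other cells also differed between these groups, though none passed the adjusted limit by limma. With BBR all 12 macrophage genes were lower, 8 with an unadjusted p under 0.05 and 7 without overlap, as were 5.2% and 5.66% of all genes, and their sum was 184 to 342 FPKM against 350 to 1034. The 11 granulocyte genes, several of which met the filter on low values only through the colitis mice, summed to 3.06 to 219 against 47.0 to 498 FPKM. The 10 smooth muscle genes all had a positive difference, none with an unadjusted p under 0.05, with sums of 585 to 3987 against 108 to 832 FPKM. The part of these shifts in the lower Slc10a2 values was not tested.

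BBR without DSS was examined in normal mice. None of the 6 genes passed the adjusted limit, as 0 of 15315 (0%) did by limma. None had an unadjusted p under 0.05, as 1.36% of all genes had, and none was free of overlap, as 9.62% of all genes were. Nr1h4 was at 47.7, 36.6 and 34.9 FPKM in normal mice 1, 3 and 4 receiving BBR and Slc51b at 38.6, 31.3 and 18.5 FPKM, all within or next to the range of normal mice. The differences were 0.01 ± 0.29 for Nr1h4, −0.19 ± 0.58 for Slc51b, 0.24 ± 0.72 for Slc10a2, at 4.91, 2.54 and 6.65 FPKM, and 0.01 ± 0.62 for Gpbar1, at 0.19, 1.13 and 0.61 FPKM. Fabp6 had the largest difference of the 6, at 8.29, 14.9 and 2.60 FPKM in the BBR mice, 0.90 ± 1.26. Slc51a, at 0.05, 0.21 and 0 FPKM, differed by −0.67 ± 0.91.

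Colitis mice receiving BBR and normal mice receiving BBR share no mouse with the comparison of colitis with normal. Their means so give the DSS difference in other animals, under the drug. The SE and p-values by limma do not rest on other animals, as the same fit of all groups, with a shared variance, gave both comparisons. The tests are therefore not independent. None of the 6 genes passed the adjusted limit, which 6 of 15315 (0.0392%) did by limma, a count that was 2256 without colitis mouse 4 receiving BBR and 0 to 7 without any other 1 mouse. Slc51b was the 1 of 6 with an unadjusted p under 0.05, and it was higher, as were 2.37% of all genes (19.7% in either direction). No gene was free of overlap, as 20.2% of all genes were.

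Slc51b in colitis mice 2 and 3 receiving BBR, at 179 and 151 FPKM, was above the highest normal mouse receiving BBR at 38.6 FPKM, and mouse 4, at 30.9 FPKM, was among them. The difference was 1.74 ± 0.58 (p = 0.0119, adjusted p = 0.215 by limma, exact permutation p = 0.3). It passed the limit with the mice numbered 4 as a block (adjusted p = 0.0441 by limma), without them (2.24, adjusted p = 0.0115) and without colitis mouse 4 receiving BBR alone (2.54, adjusted p = 0.0104). In these 3 fits 268 of 15315, 2380 of 15043 and 2256 of 15311 genes passed. Nr1h4 differed by 0.52 ± 0.29 (adjusted p = 0.311 by limma), with mouse 4, at 37.2 FPKM, inside the range of 34.9 to 47.7 FPKM and the other 2 above it. Slc10a2 differed by −0.03 ± 0.72, and its 3 values of 13.2, 2.01 and 2.88 FPKM lay above, below and within the range of 2.54 to 6.65 FPKM.

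Whether BBR acted differently in colitis and normal mice was tested as an interaction. It passed the adjusted limit for 0 of 6 genes and for 0 of 15315 (0%) by limma, and Slc10a2 was the 1 gene of the 6 with an unadjusted p under 0.05, lower, as were 1.72% of all genes (2.42% in either direction). Its interaction was −2.39 ± 1.02 (adjusted p = 1.00 by limma). That of Nr1h4 was −0.52 ± 0.42 and that of Slc51b −0.33 ± 0.83.

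**Figure D4:**
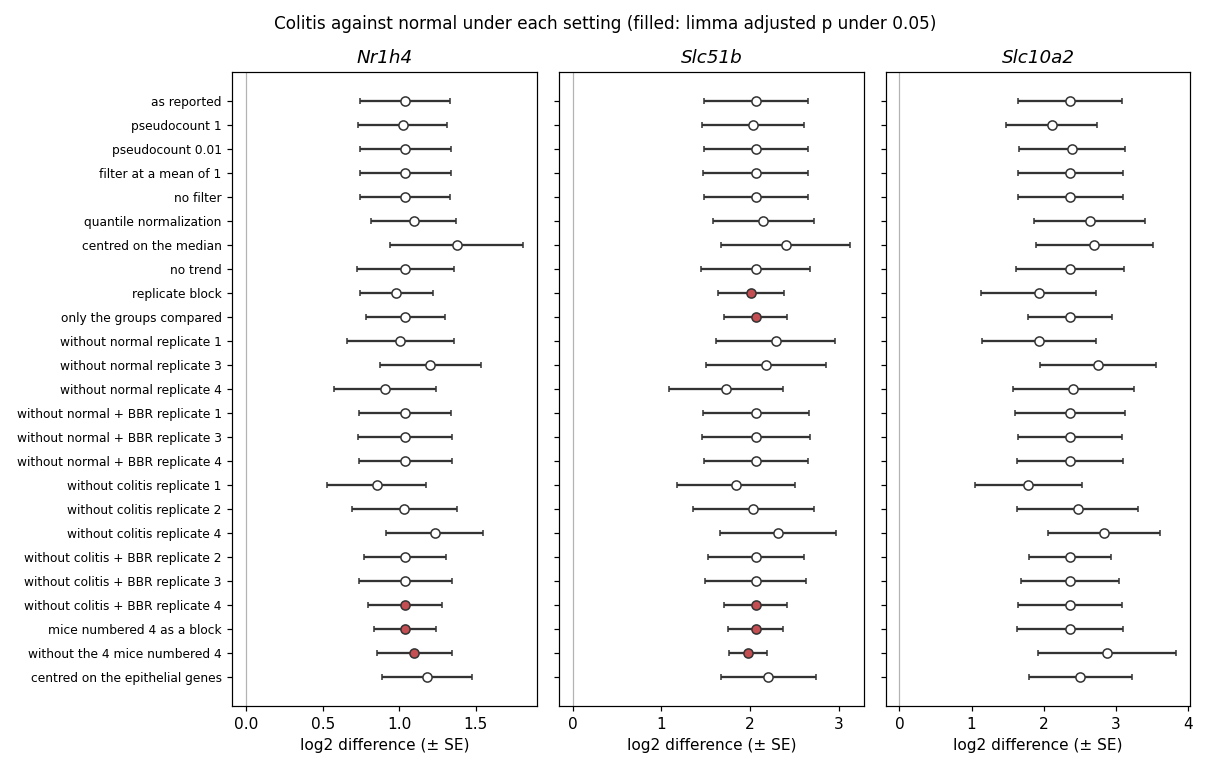
Difference in colitis against normal with its SE (x axis, log2 scale) for Nr1h4, Slc51b and Slc10a2 as reported and under each other setting (y axis), filled where the adjusted p by limma was under 0.05. All points lie above 0, at 0.85 to 1.38 for Nr1h4, 1.72 to 2.40 for Slc51b and 1.79 to 2.88 for Slc10a2, and none of Slc10a2 is filled.

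The genes that act with the 8 were described from 7 lists of bile acid genes. In colitis against normal no gene of these lists passed the adjusted limit with the 12 mice in 1 fit. With the mice numbered 4 as a block, where 1412 of 15315 genes passed by limma, Fgfr2, Fgfr3 and Sult2b1 were lower past the limit and Gcg and Pyy higher. Without those mice, where 930 of 15043 passed, Fgfr3, Gcg and Pyy did again, along with Slco2b1, lower. Dio2 with either setting and Abcb11 without those mice also had an adjusted p under 0.05, but they met the filter on low values only through the colitis mice, at 0.34 to 5.32 and 0.06 to 0.48 FPKM, so no call is drawn from them. Sult2b1, Slco2b1, Dio2 and Abcb11 are named after their values were seen. The counts below are of unadjusted p-values under 0.05 and of groups without overlap, which 15.9% and 22.2% of all genes reached in the lower and 5.56% and 7.1% in the higher direction.

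Partners and coregulators of FXR mostly had a negative difference in colitis mice, and none passed the adjusted limit. Of 16 genes, 15 were tested and 14 had a negative difference, 5 of them with an unadjusted p under 0.05 and 8 without overlap. The median was −0.59, against −0.32 over all genes, and with quantile normalization −0.31 against −0.05. Hnf4a, a master regulator of enterocytes, was at 238 to 281 FPKM in normal mice and 101 to 188 in colitis mice, a difference of −0.79 ± 0.29 (adjusted p = 0.159 by limma). Rxra, which pairs with FXR, went from 23.1 ± 2.84 (SD, n = 3) to 14.8 ± 5.66 FPKM, a difference of −0.71 ± 0.35 (adjusted p = 0.256 by limma).

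Other bile acid receptors, 5 genes, had 4 lower, 2 of them without overlap. Vdr, the vitamin D receptor, which also binds lithocholic acid, was at 139 to 233 FPKM in normal mice and 27.4 to 82.5 in colitis mice (−1.55 ± 0.55, adjusted p = 0.148 by limma), while Nr1i2, the receptor PXR, differed by −0.21 ± 0.24 with overlap. Every colitis mouse lay below the range of the normal mice for Vdr. With BBR, Vdr was at 34.2 to 150 FPKM in colitis mice and 145 to 178 in normal mice.

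The list of FGF15 receptors had 5 of 5 tested genes lower, 3 of them without overlap. Fgfr4, the receptor through which FGF15 acts on the liver, named here after its values were seen, was not among these 3, at 3.39 to 3.93 FPKM in normal mice and 2.11 to 5.10 in colitis mice, a difference of −0.29. Fgfr3, a receptor for other fibroblast growth factors as well, was at 10.9 to 16.1 FPKM in normal mice and 0.37 to 3.23 in colitis mice. The difference was −3.31 ± 0.85 (adjusted p = 0.0753 by limma, 0.0294 with the mice numbered 4 as a block). Without those mice it was −4.11 (adjusted p = 0.0485 by limma), and between the mice numbered 4 alone −1.72. Klb, the coreceptor β-Klotho, was at 8.39 ± 0.73 (SD, n = 3) and 3.34 ± 2.45 FPKM (−1.54 ± 0.69, adjusted p = 0.223 by limma).

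Detoxification genes, whose enzymes hydroxylate bile acids or add sulfate or glucuronate, had a negative difference in 6 of 6 tested. The median was −0.99, against −0.32 over all genes. Of the 6, 4 had an unadjusted p under 0.05 and no overlap, while Papss2 and Ugt1a1 were at −0.13 and −0.08. None passed the adjusted limit. The glucuronosyltransferase gene Ugt1a7c was at 85.7 to 134 FPKM in normal mice and 31.8 to 54.4 in colitis mice (−1.26 ± 0.40, adjusted p = 0.121 by limma). In colitis mice receiving BBR it was at 46.2 to 152 FPKM, and all 6 genes of the list had a positive difference from colitis mice, 1 with an unadjusted p under 0.05, as 1.19% of all genes had in that direction, Ugt1a7c itself (1.00 ± 0.40, adjusted p = 0.698 by limma). Reads of the Ugt1a genes, which share most of their exons, may be split between them.

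Other bile acid and organic anion transporters, 14 tested, were mixed, with 9 lower and 5 higher and a median of −0.20 that was 0.18 with quantile normalization. Abcb1a, a P-glycoprotein gene, was at 199 to 355 FPKM in normal mice and 69.4 to 106 in colitis mice (−1.54 ± 0.49, adjusted p = 0.126 by limma), whereas Abcg2, a sulfate conjugate exporter, differed by 0.43 ± 0.36. Synthesis and conjugation genes, 15 tested, had 10 lower and 5 higher with a median of −0.34, near the −0.32 of all genes, and Cyp27a1, which starts the alternative pathway of bile acid synthesis, was at 23.8 ± 5.62 (SD, n = 3) and 13.2 ± 0.98 FPKM.

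Signalling and hormone genes downstream of Gpbar1 numbered 11, all tested. Apart from Dio2, from which no call is drawn, they had 4 higher and 6 lower, with 1 of each without overlap. The higher one was Gcg and the lower one Gnas, for the G protein that couples receptors to cAMP, at 453 ± 32.05 (SD, n = 3) and 338 ± 46.8 FPKM. Gcg, the L cell gene for GLP-1, was at 22.9 to 46.5 FPKM in normal mice and 93.6 to 708 in colitis mice (2.94 ± 0.85, adjusted p = 0.102 by limma, 0.00949 with the mice numbered 4 as a block and 0.0256 without them). Pyy, for peptide YY of the same cells, was at 419 ± 112 (SD, n = 3) and 1726 ± 1441 FPKM with overlap (1.63 ± 0.80, adjusted p = 0.256 by limma, 0.0472 with the block and 0.0417 without those mice). In colitis mice receiving BBR Gcg was at 61.4 to 628 FPKM. Gpbar1 itself reached at most 1.13 FPKM in the 12 mice, far under these hormone genes.

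**Figure D5:**
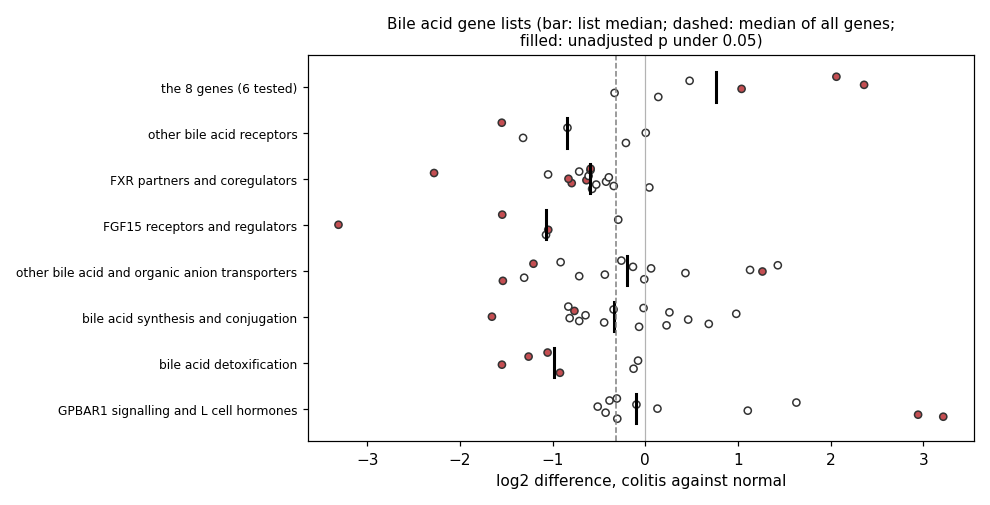
Differences in colitis against normal (x axis, log2 scale) of the tested genes of the 8 described here and of 7 lists of bile acid genes (y axis), where a circle is a gene, filled at an unadjusted p under 0.05, a bar is the list's median and the dashed line is the median of all genes (−0.32). The 6 tested genes of the 8 have a median of 0.76, and the lists of FGF15 receptors and of detoxification have no circle above 0.

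Genes with the most similar pattern over the 12 mice were sought among 11939 genes with a mean of at least 1 FPKM, by the mean absolute difference of log2(FPKM + 0.1) after centring each gene on its own mean. For Nr1h4 they were Slc44a4 (0.16), Smpdl3a (0.17) and Naip1 (0.17), where the median gene was at 0.71. Slc51b was nearest to Fam3b (0.32), Tnip3 (0.34) and Ptk6 (0.36), with 1.30 for the median gene. Slc10a2 was nearest to Pax8 (0.63), Dgat2 (0.65) and Krtap3-1 (0.66) and Fabp6 to Rhbg (0.71), Casp14 (0.71) and Ugt1a1 (0.76), matches that were less close. Among the tested genes themselves Nr1h4 and Slc51b were the nearest pair, at 0.64, and Slc51b was at 0.80 from its partner Slc51a and 1.36 from Fabp6. These values describe 12 libraries that share the shift of the mice numbered 4.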

How the data were processed

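Colorectal RNA of 12 mice, 3 in each of 4 groups taken from the labels, was sequenced by the authors, who per the labels and methods used SOAPnuke to filter reads, Bowtie2 for alignment to mm9 and RSEM for expression. The values deposited by the authors were read as FPKM from their range, and TPM cannot be told apart. They hold no counts, so the reads behind a value were estimated from how low values of single-transcript genes are spaced.

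Values were transformed to log2(FPKM + 0.1), filtered at a mean of 0.1 and fitted with limma 3.58.1 (R 4.3.3, trend), 1 mean per group, Benjamini-Hochberg adjusted over 15315 genes. Alternatives were pseudocounts of 1 and 0.01, a filter at 1 or none, quantile normalization, median centring, the compared groups alone, no trend, a replicate block and leaving out each mouse. A block for the mice numbered 4, leaving them out and centring on epithelial genes were added after seeing the data.

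The 8 genes and all lists were chosen with earlier results of these data known. From each list the 4 genes with the highest mean could be named, with the 2 highest of each marker list and any past the adjusted limit, and 3 genes nearest in pattern to each of the 8 with a mean of at least 1. Same-numbered normal mice with and without BBR deviated together (r across genes of 0.29, 0.11 and 0.66 for numbers 1, 3 and 4), though mice 1 and 3 correlated more closely across numbers (0.37 and 0.46), and the block changed no call there. Gene positions and promoters come from RefSeq (GRCm38.p6) and transcript lengths from GENCODE.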

Additional observations from a re-analysis of the deposited data

How the results depend on the processing

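The number of the 6 tested genes past the adjusted limit was 0 in all comparisons as reported. In colitis against normal it was 1 with the replicate block or with only the 2 groups in the fit, in both cases Slc51b, and 2, Nr1h4 and Slc51b, with the mice numbered 4 as a block or without these 4 mice. Leaving out each mouse in turn gave 0 to 2, with 2 only without colitis mouse 4 receiving BBR. In colitis with BBR against normal with BBR the number was 1, Slc51b, with the mice numbered 4 as a block or without them, and leaving out each mouse gave 0 to 1, with 1 only without colitis mouse 4 receiving BBR. Over all genes, the 165 calls in colitis against normal became 734 with the replicate block, 488 with the 2 groups alone, 1412 with the block for the mice numbered 4, 930 without them and 11 to 828 with 1 mouse left out. In the other comparisons and the interaction the number for the 6 genes was 0 under every alternative. Same-numbered mice share a number in the labels, and apart from Slc51b in colitis against normal the replicate block (log2 difference of 2.01) changed no call. A filter at a mean of 1 left no value for Gpbar1 and Slc51a, and a fit of the compared groups alone none for the interaction.

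Signs that turned were of differences far from the limit. In colitis against normal Gpbar1 was at 0.065 with quantile normalization, 0.0048 centred on the median and 0.16 with the replicate block, and Fabp6 at −0.86 without the mice numbered 4. In colitis with BBR against colitis Fabp6 was at −0.21 with a pseudocount of 1 and Slc51b at 0.037 without the mice numbered 4. In normal with BBR against normal Nr1h4 was at −0.035 and Slc10a2 at −0.016 without those mice, and Gpbar1 at −0.030 with a pseudocount of 0.01. In colitis with BBR against normal with BBR Slc10a2 was at 0.017 with a pseudocount of 1, 0.37 with quantile normalization, 0.42 centred on the median, 0.54 without the mice numbered 4 and 0.016 centred on the epithelial genes, Gpbar1 at −0.21 without the mice numbered 4 and Fabp6 at 0.16 with the replicate block. In the interaction Slc51a was at 0.023 with a pseudocount of 0.01, 0.033 with quantile normalization, 0.025 centred on the median and 0.033 with the replicate block, and Slc51b at 0.26 without the mice numbered 4. The causes were not tested.

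Leaving out 1 mouse turned the sign of Fabp6 (−0.88 to 1.94), Slc51a (−0.23 to 1.42) in colitis against normal, of Fabp6 (−1.65 to 1.17) and Slc51b (−0.98 to 0.29) in colitis with BBR against colitis, of Nr1h4 (−0.13 to 0.17), Gpbar1 (−0.46 to 0.58), Slc10a2 (−0.20 to 0.62) and Slc51b (−0.53 to 0.11) in normal with BBR against normal, of Gpbar1 (−0.46 to 0.71), Slc10a2 (−0.83 to 0.49), Fabp6 (−1.31 to 0.069) and Slc51a (−0.24 to 0.95) in colitis with BBR against normal with BBR, and of Gpbar1 (−0.13 to 1.05), Fabp6 (−2.55 to 0.27), Slc51a (−1.04 to 0.62) and Slc51b (−0.79 to 0.48) in the interaction. Values of Nr0b2, Fgf15, Slc51a and Gpbar1 rest on at most 19 reads in a mouse.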
